A study of Homo sapiens with 4 samples.

Results

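Transcripts of 42 genes of laminins and matrix glycoproteins were followed in TPC1 cells under FGFR inhibition. The genes were chosen by symbol from a list of matrix genes, and all 42 were found among the 20372 genes of the count table. They cover laminin chains, the linkers and heparan sulfate proteoglycans of the basement membrane, fibronectin and tenascins, microfibril and elastic fibre proteins, thrombospondins, other proteoglycans and matricellular proteins. TPC1, a human line from a papillary thyroid cancer, has the CCDC6-RET fusion, and every library comes from this single line. RNA was sequenced after 6 h or 24 h with BGJ398, a small-molecule inhibitor of the FGF receptor kinases, with 2 libraries per time. The dose is 100 micromolar per the labels, but the study's methods state it in nanomolar, and its unit is not settled. Untreated and vehicle-treated cells were not analysed here. The values therefore compare a late with an early time under the inhibitor and carry no measure of the response to the inhibitor itself. Nothing states that the replicates were separate cultures, so the spread behind each p-value is that of these libraries and may be technical.

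The matrix proteins encoded by these genes are secreted and assembled outside the cell. Laminins are trimers of an alpha, a beta and a gamma chain that polymerise into the sheet of the basement membrane on which epithelial cells, thyroid follicle cells included, rest. Nidogens and the proteoglycans perlecan and agrin tie that sheet to type IV collagen and to the cell surface. Fibronectin forms fibrils that cells bind through integrins, tenascin-C modulates that adhesion, and fibrillins build microfibrils that hold latent TGF-beta together with its binding proteins.

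The libraries held 24958447 to 26325512 counts, and each value below rests on counts of that depth. Levels are given as CPM, the counts of a gene scaled to a common library total after TMM factors. A fold change is the edgeR log2 ratio of 24 h to 6 h, given with its standard error (SE), and this holds for genes called by DESeq2 as well. Of the thyroid markers, PAX8 was detected whereas NKX2-1 and TSHR had no count, and the 7 thyroid markers summed to 998 to 1050 CPM at 24 h and 1108 to 1111 CPM at 6 h. The 6 fibroblast markers summed to 15.7 to 16.8 CPM at 24 h and 18.0 to 22.4 CPM at 6 h, with COL1A2 and COL3A1 at 0 in every library. The 6 epithelial markers summed to 141 to 166 CPM against 166 to 168 CPM, and the 3 erythroid markers had no count. The 5 leukocyte markers summed to 167 to 203 CPM at 24 h and 212 to 238 CPM at 6 h. Of that sum CD68, which epithelial lines can also express, gave 166 to 202 CPM at 24 h and 211 to 237 CPM at 6 h, and CD3E had no count. The 3 endothelial markers summed to 4.32 to 4.74 CPM against 3.75 to 8.36 CPM. The thyroid, fibroblast and leukocyte sums did not overlap between the times and were lower at 24 h, like most matrix genes. The epithelial and endothelial sums overlapped. The part of other cells in the values below was not tested. Fewer cells of a kind and less RNA per cell cannot be told apart in such libraries. The 13 genes of the mitochondrial genome took 1.68% and 2.98% of counts in replicates 1 and 2 at 24 h and 1.09% and 1.40% at 6 h, and their relation to the matrix genes was not tested.

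The matrix genes took a larger share of the RNA at 6 h than at 24 h in these libraries. They held 2.52% of all counts in 6 h replicate 1 and 1.83% in 6 h replicate 2. At 24 h they held 1.58% in replicate 1 and 1.31% in replicate 2. The times did not overlap, but the 6 h replicates differed from each other by more than 6 h replicate 2 did from 24 h replicate 1. FN1 alone, the gene of fibronectin, made up between 51.0% and 62.9% of the members' counts. Without FN1 the share was 0.934% and 0.797% at 6 h and 0.730% and 0.642% at 24 h, in the same order. The laminin chains followed that order too, with 0.424% and 0.348% at 6 h against 0.304% and 0.256% at 24 h. A permutation test of 2 libraries against 2 cannot give a two-sided p below 0.33, so such shares cannot pass a threshold by themselves.

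**Figure D1:**
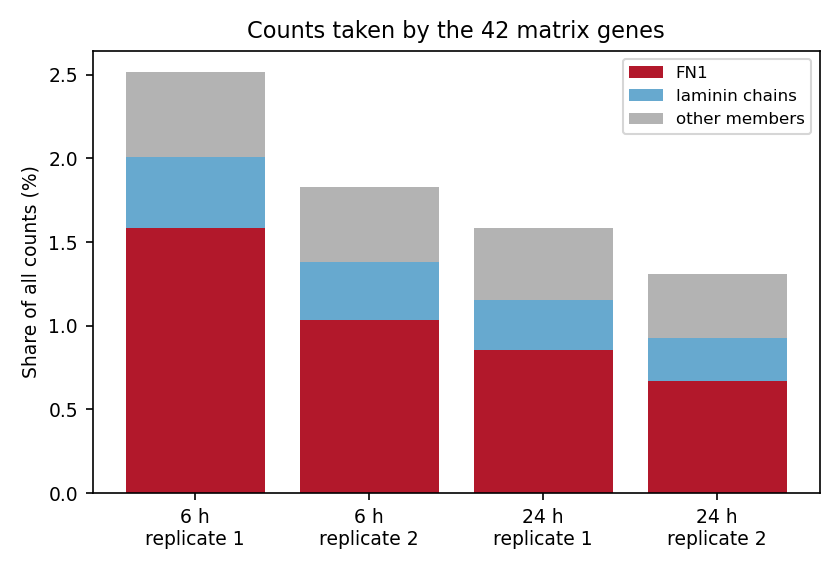
Share of all counts (%) that the 42 matrix genes took in each library, stacked as FN1, the laminin chains and the other members. The share falls from 2.52% in 6 h replicate 1 to 1.31% in 24 h replicate 2, and FN1 is the largest block in every bar.

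Of the 42 genes, 31 passed the filter on low counts and 11 did not. The edgeR quasi-likelihood test called 0 of the 31 and 0 of all 12549 tested genes (0%), with a smallest Benjamini-Hochberg adjusted p of 0.173. At an unadjusted p under 0.05, 15 members were lower at 24 h and 0 were higher, where 10.5% of all tested genes were lower and 13.9% higher. DESeq2, run as the alternative tool, called 9 members lower and 0 higher of the 23 to which it gave an adjusted p. Over all genes it called 2.65% lower and 5.59% higher of 7410. Those called lower were TNC, FBN2, FBN1, LAMB3, LAMC1, NID1, NID2, AGRN and ECM1. Below, called or not called refers to fits with all libraries and without the replicate number as a block, unless stated. More members were called with that block, as given in the closing section. DESeq2 called 0 of the members without 24 h replicate 2 and 0 without 6 h replicate 1, against 8 without 24 h replicate 1 and 8 without 6 h replicate 2. The loss of calls in the first 2 of these fits was not particular to the members. Calls over all genes nearly vanished there too, as given in the closing section. Why the calls changed with the library left out was not tested.

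The median log2 fold change of the 31 members was -0.31, beside a median of 0.00019 over all tested genes, with 26 members below 0 and 5 above. It was -0.17 without 6 h replicate 1. Both 24 h libraries lay below both 6 h libraries in 18 members and above them in 4, where 31.5% and 31.3% of all tested genes did so, and the times overlapped in 9. Members are long genes, with a median transcript length of 5792 bases against 3374 bases for tested genes with a length. With the trend on transcript length and GC content removed from each library the median was -0.16. By role, the median was -0.83 for FN1 and TNC, -0.54 for the 4 linkers and heparan sulfate proteoglycans, -0.33 for 8 microfibril and elastic fibre genes and -0.31 for 7 laminin chains. It was -0.18 for 3 other proteoglycans, -0.13 for 3 thrombospondins and -0.09 for 4 matricellular and other genes. The 17 members with a mean of at least 100 CPM had a median of -0.40, and the 14 below that level one of -0.12. All 2355 tested genes of at least 100 CPM had a median of -0.05.

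**Figure D2:**
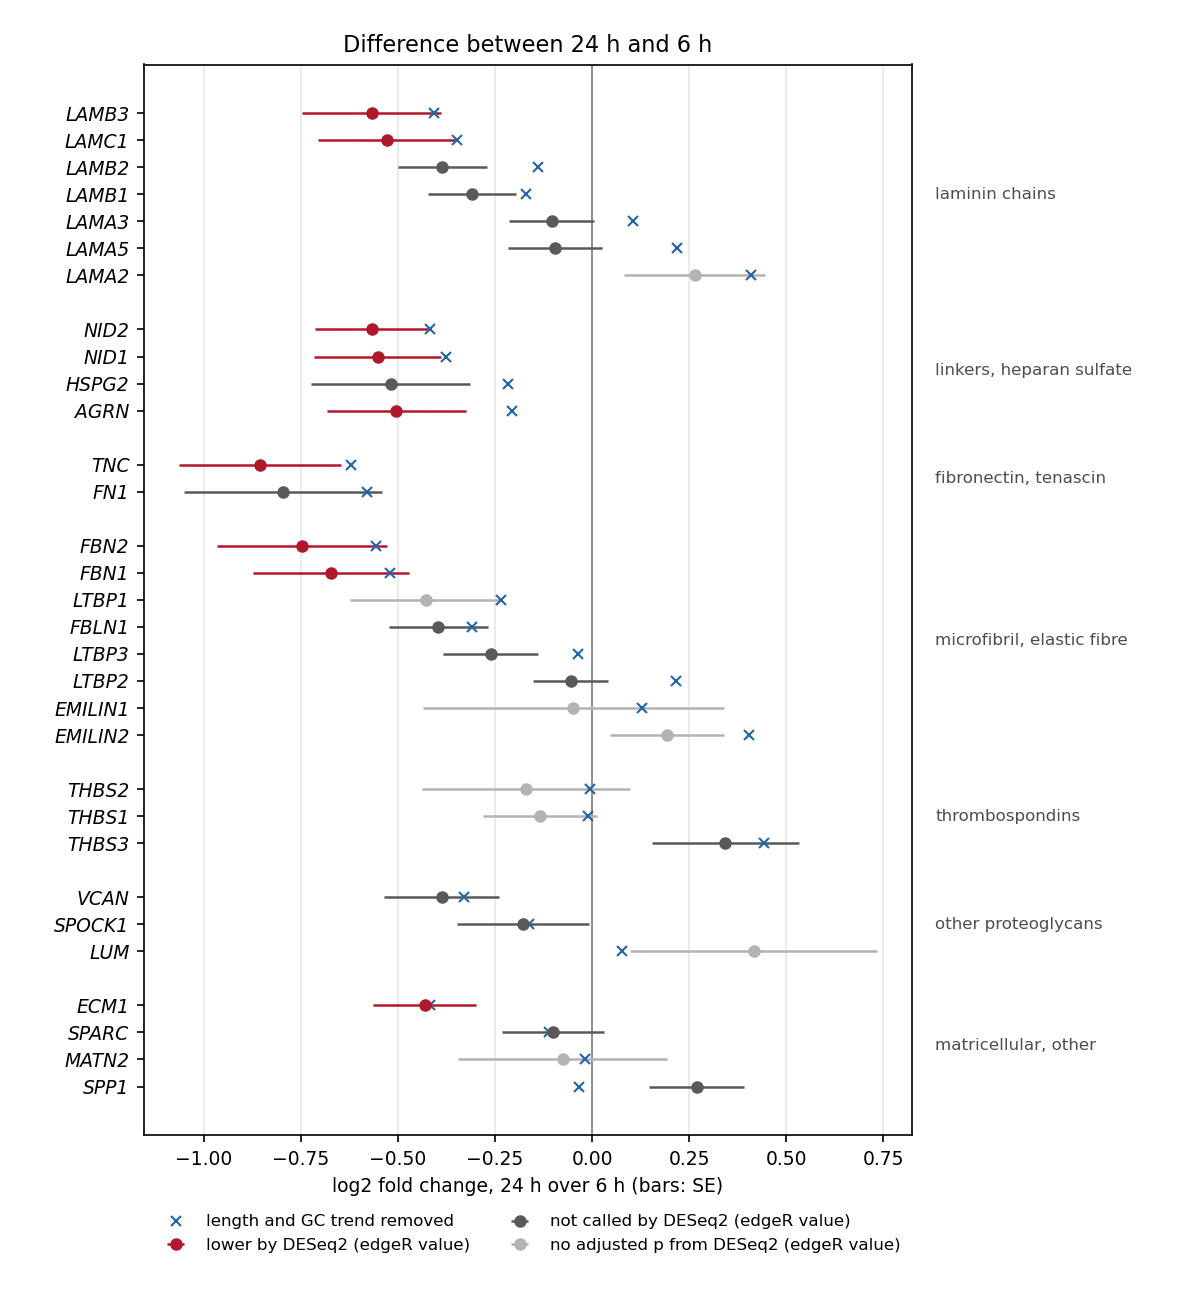
Log2 fold change of 24 h over 6 h from edgeR for the 31 tested members, grouped by role, with bars for the SE, coloured by the DESeq2 call, and crosses for the value with the length and GC trend removed. Values run from -0.85 for TNC to 0.42 for LUM, and the crosses lie to the right of most points.

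FN1 (ENSG00000115414, hg19 chromosome 2, 216225163 to 216300895) was the most abundant gene of all 20372 by mean CPM. It stood at 16278 CPM and 10104 CPM in replicates 1 and 2 at 6 h and at 8484 CPM and 6707 CPM at 24 h. The 24 h values were the lower, at a mean of 7595 ± 1256 against 13191 ± 4366 CPM (SD, n = 2), and 6 h replicate 1 stood well above the other 3 libraries. The fold change was -0.80 ± 0.25, and neither tool called FN1 (edgeR adjusted p = 0.173, DESeq2 adjusted p = 0.150, 1.47e-06 to 0.904 over all alternative fits). Without 6 h replicate 1 the fold change was -0.41. Expressed per length of the canonical transcript, its mean level was 1239 CPM per kilobase, ahead of SPP1 at 471, LAMB3 at 360, SPARC at 352 and LAMC1 at 145 CPM per kilobase.

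TNC encodes tenascin-C, a hexameric glycoprotein that loosens the hold of cells on fibronectin, and it had the fold change of largest size among the members. It (ENSG00000041982, hg19 chromosome 9, 117782806 to 117880536) stood at 458 CPM and 304 CPM at 6 h and at 240 CPM and 181 CPM at 24 h. The times did not overlap, and the libraries stood in the same order as for FN1. The fold change was -0.85 ± 0.21, and the adjusted p was 0.173 with edgeR and 0.00448 with DESeq2 (1.44e-11 to 0.649 over all alternative fits). Without 6 h replicate 1 it was -0.53. TNC stood at 2.83% and 2.70% of the FN1 level at 24 h and at 2.81% and 3.01% at 6 h. That ratio overlapped between the times (exact permutation test, two-sided, p = 0.667, where 0.33 is the smallest possible). The remaining genes of this group were at trace level. VTN, the gene of the plasma protein vitronectin, had 1 count in 24 h replicate 1 and 0 in the other 3 libraries. TNXB, the gene of tenascin-X, had 2 and 6 counts at 24 h and 9 and 5 at 6 h. Its span overlaps that of ATF6B, so reads may be shared.

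The windows upstream of TNC and FBN2, the DESeq2 calls with the fold changes of largest size, are shown with that of FN1, the most abundant member, and that of ECM1, which holds other motifs. They are the 250 bases before the RefSeq start on GRCh38.p14, all on the gene's own strand. Capitals mark matches on either strand to the AP-1 site TGANTCA, the GC box GGGCGG, the TATA box TATAAA and the CCAAT box. Adjoining GC boxes in FN1 overlap. The windows are chr9:115118158-115118407 (minus strand), chr5:128538246-128538495 (minus), chr2:215436069-215436318 (minus) and chr1:150507859-150508108 (plus).
TNC: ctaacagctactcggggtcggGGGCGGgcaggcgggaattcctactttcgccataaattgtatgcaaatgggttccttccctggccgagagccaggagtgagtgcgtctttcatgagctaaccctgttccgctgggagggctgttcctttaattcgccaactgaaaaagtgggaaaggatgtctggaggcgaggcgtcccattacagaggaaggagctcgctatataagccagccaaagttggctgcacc
FBN2: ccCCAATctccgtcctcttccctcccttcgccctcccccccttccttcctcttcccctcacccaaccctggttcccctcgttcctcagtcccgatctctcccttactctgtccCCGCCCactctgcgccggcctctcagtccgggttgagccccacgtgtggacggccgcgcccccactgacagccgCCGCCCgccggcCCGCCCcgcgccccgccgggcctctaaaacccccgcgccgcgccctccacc
FN1: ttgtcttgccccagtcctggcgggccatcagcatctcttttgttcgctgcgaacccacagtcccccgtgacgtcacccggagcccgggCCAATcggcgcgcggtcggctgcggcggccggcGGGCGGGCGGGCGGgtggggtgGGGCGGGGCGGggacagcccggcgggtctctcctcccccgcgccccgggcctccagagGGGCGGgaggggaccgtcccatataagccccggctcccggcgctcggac
ECM1: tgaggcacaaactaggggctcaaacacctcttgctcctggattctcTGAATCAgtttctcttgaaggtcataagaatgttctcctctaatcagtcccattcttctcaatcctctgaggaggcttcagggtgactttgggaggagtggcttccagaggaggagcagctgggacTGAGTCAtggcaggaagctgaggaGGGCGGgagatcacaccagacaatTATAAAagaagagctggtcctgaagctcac

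The FN1 window holds 6 GC boxes and a CCAAT box. The ECM1 window has AP-1 matches that start 204 and 78 bases before the start and a TATAAA match 30 bases before it. Over windows that also take in 50 bases after the start, promoters were found for 26 of the 31 tested members and for 8 of the 9 called by DESeq2. A GC box was in 20 of the 26 and in 7 of the 8, and in 70.1% of the 9523 promoters of tested genes. An AP-1 match was in 3 of the 26, namely ECM1, EMILIN2 and LAMA3, and in 1 of the 8, beside 4.80% of tested genes. A CCAAT box was in 8 of the 26 and 3 of the 8, beside 36.5%. The exact letters TATAAA were in 2 of the 26, ECM1 and THBS2, and 1 of the 8, beside 5.39%. Near matches to these letters, such as those in the TNC and FN1 windows, were not counted. The median GC content of the windows was 67.7% for members and 65.3% for tested genes. These matches describe letters and not binding.

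Among the laminin chains, LAMB3 and LAMC1 were the most abundant by CPM and also by CPM per kilobase. LAMB3, the beta chain of the laminin under epithelial anchoring junctions (ENSG00000196878, hg19 chromosome 1, 209788215 to 209825811), stood at 1961 CPM and 1486 CPM at 6 h and at 1284 CPM and 1041 CPM at 24 h. Its fold change was -0.57 ± 0.18, with an adjusted p of 0.0187 by DESeq2 (2.48e-05 to 0.903 over all alternative fits), and was -0.36 without 6 h replicate 1. LAMC1, the gamma chain shared by most laminins (ENSG00000135862, hg19 chromosome 1, 182992595 to 183114727), stood at 1546 CPM and 1170 CPM at 6 h and at 1048 CPM and 837 CPM at 24 h. Its fold change was -0.53 ± 0.18, with an adjusted p of 0.0250 by DESeq2 (0.000171 to 0.903), and was -0.31 without 6 h replicate 1 and -0.35 with the length and GC trend removed. Both chains had their highest value in 6 h replicate 1 and their lowest in 24 h replicate 2, and the times did not overlap in either. The ratio of LAMB3 to LAMC1 was 1.27 in both 6 h libraries and 1.23 and 1.24 at 24 h, a narrow range beside the spread of either gene.

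The other beta chains were lower at 24 h in all libraries without a call. LAMB1, the beta chain found in most basement membranes, was at 292 and 266 CPM at 6 h and 237 and 213 CPM at 24 h (fold change -0.31 ± 0.11, and -0.17 with the length and GC trend removed). LAMB2, the beta chain of the kidney filter and the neuromuscular junction, was at 144 and 120 CPM at 6 h and 101 CPM in both 24 h libraries (-0.39 ± 0.11, -0.14 with that trend removed and -0.25 without 6 h replicate 1). The span of LAMB1 overlaps that of DLD by 7932 bases.

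The alpha chains, which carry the main sites for cell receptors, had fold changes between -0.10 and 0.26. LAMA5, the alpha chain of mature epithelial basement membranes, was at 384 and 329 CPM at 6 h and 322 and 346 CPM at 24 h, so that the times overlapped (-0.10 ± 0.12). LAMA3, the alpha partner of LAMB3, was at 27.4 and 25.7 CPM at 6 h and 24.0 and 25.4 CPM at 24 h (-0.10 ± 0.11). Both values turned positive, to 0.22 for LAMA5 and 0.11 for LAMA3, with the length and GC trend removed. LAMA2, the alpha chain of muscle, was at 4.20 and 4.30 CPM at 6 h and 4.72 and 5.50 CPM at 24 h (0.26 ± 0.18, and 0.41 after removal of that trend). The beta chain LAMB3 thus exceeded LAMA3 by 71.6 and 57.9 times in CPM at 6 h and by 53.6 and 41.0 times at 24 h (exact permutation test of the ratio, two-sided, p = 0.33, the smallest that 2 against 2 allows). LAMC1 exceeded LAMA5 by 4.03 and 3.55 times at 6 h and by 3.26 and 2.42 times at 24 h (p = 0.33 by the same exact test). These ratios are of CPM and are not corrected for length. Per kilobase the mean levels were 360 for LAMB3, 2.40 for LAMA3, 145 for LAMC1 and 30.2 for LAMA5. Of the 42 genes, the remaining chains were at or near 0. LAMA1 had 4 and 1 counts at 24 h and 3 and 0 at 6 h, LAMA4 had 6 and 4 against 4 and 3, and LAMC3 had 0 in every library, where a count of 0 allows up to 0.114 to 0.120 CPM for counting error only.

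**Figure D3:**
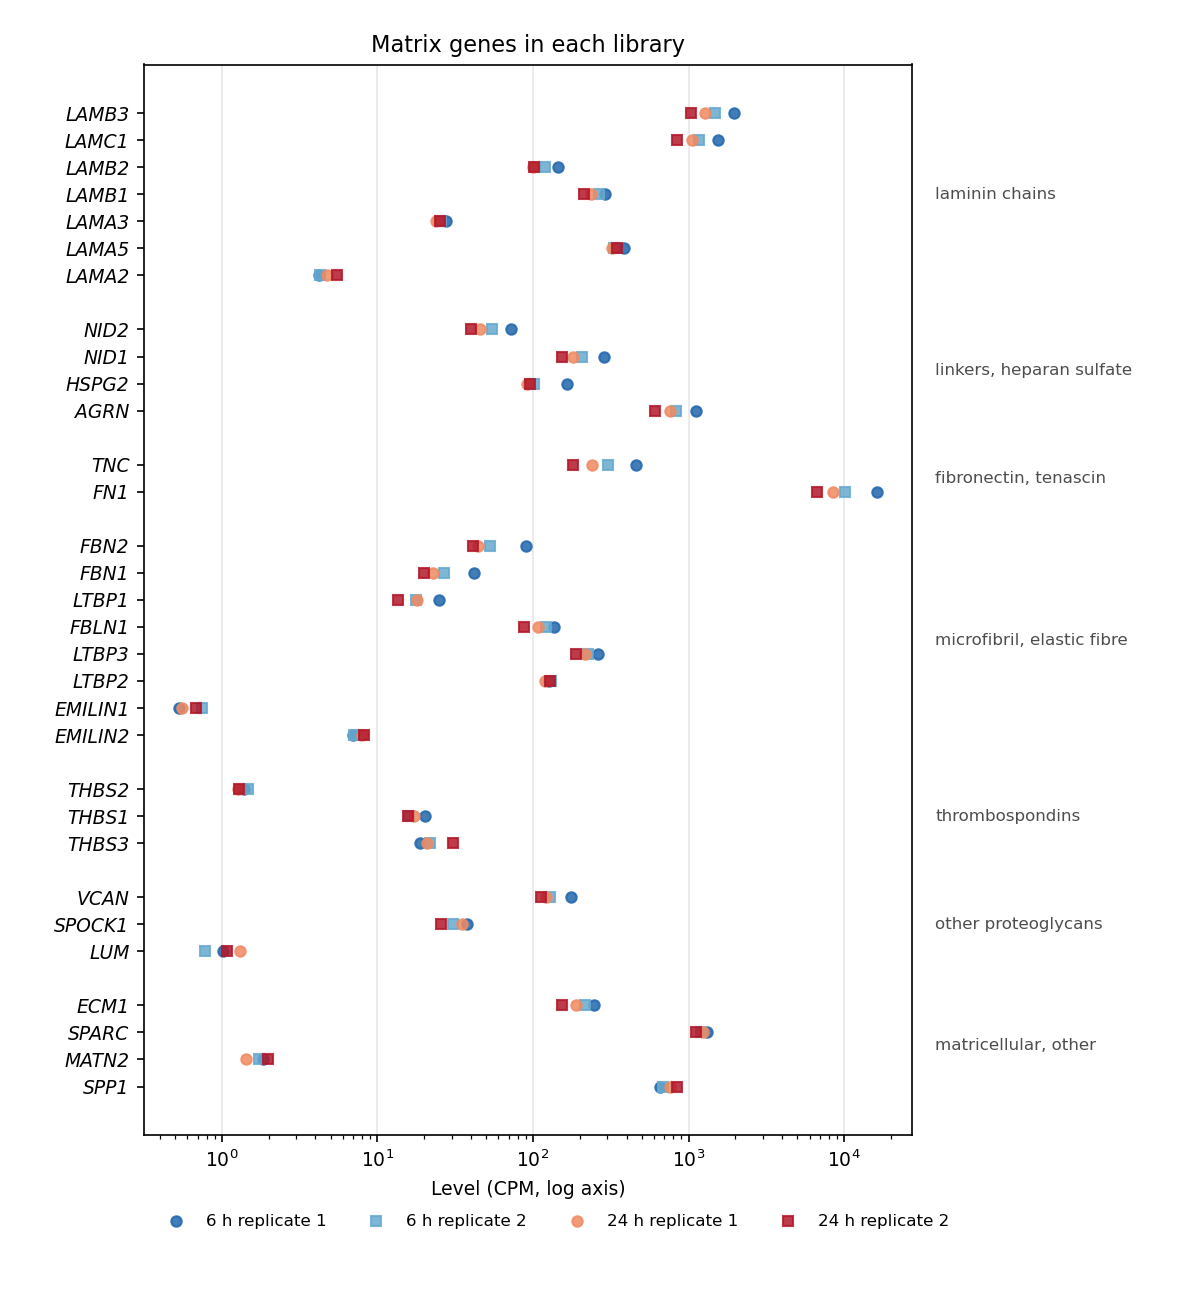
Level in CPM on a log axis of each of the 31 tested members in each of the 4 libraries, grouped by role. FN1 lies far to the right, between 6707 and 16278 CPM, and in most abundant members 6 h replicate 1 is the highest and 24 h replicate 2 the lowest.

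The 4 genes that link laminin to collagen and to the cell surface had fold changes between -0.57 and -0.50 and times that did not overlap in any of the 4. NID1, which encodes nidogen-1 and binds the laminin gamma chain (ENSG00000116962, hg19 chromosome 1, 236139130 to 236228462), stood at 285 and 207 CPM at 6 h and at 181 and 154 CPM at 24 h. Its fold change was -0.55 ± 0.16, with an adjusted p of 0.0223 by DESeq2 (1.02e-05 to 0.859 over all alternative fits), and was -0.30 without 6 h replicate 1. Its paralog NID2 (ENSG00000087303, hg19 chromosome 14, 52471521 to 52535712) stood at 72.2 and 54.6 CPM at 6 h and at 45.4 and 40.1 CPM at 24 h. The fold change was -0.57 ± 0.15, with an adjusted p of 0.0223 by DESeq2 (1.11e-05 to 0.801), and was -0.35 without 6 h replicate 1. The ratio of NID1 to NID2 was 3.96 and 3.79 at 6 h and 3.99 and 3.85 at 24 h and overlapped between the times (exact permutation test, two-sided, p = 0.667).

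AGRN encodes agrin, the heparan sulfate proteoglycan that organises the neuromuscular synapse and binds laminin (ENSG00000188157, hg19 chromosome 1, 955503 to 991496). It stood at 1112 and 827 CPM at 6 h and at 759 and 608 CPM at 24 h. The fold change was -0.50 ± 0.18, with an adjusted p of 0.0326 by DESeq2 (0.000770 to 0.907 over all alternative fits). It was -0.28 without 6 h replicate 1 and -0.21 with the length and GC trend removed. HSPG2 encodes perlecan, whose heparan sulfate chains bind FGFs. It stood at 166 and 101 CPM at 6 h and at 91.3 and 95.03 CPM at 24 h, which places 6 h replicate 1 alone above 3 close values. Its fold change of -0.52 ± 0.21 was not called, and was -0.12 without 6 h replicate 1 and -0.22 after removal of the length and GC trend.

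The fibrillins had the next fold changes in size after TNC and FN1. FBN2, the fibrillin of developing tissue (ENSG00000138829, hg19 chromosome 5, 127593601 to 127994878), stood at 90.2 and 53.1 CPM at 6 h and at 44.4 and 41.0 CPM at 24 h. Its fold change was -0.75 ± 0.22, with an adjusted p of 0.0181 by DESeq2 (2.16e-07 to 0.846 over all alternative fits), and was -0.32 without 6 h replicate 1. FBN1, the fibrillin mutated in Marfan syndrome (ENSG00000166147, hg19 chromosome 15, 48700503 to 48938046), stood at 41.5 and 26.8 CPM at 6 h and at 22.9 and 19.8 CPM at 24 h. The fold change was -0.67 ± 0.20, with an adjusted p of 0.0270 by DESeq2 (5.13e-06 to 0.849), and was -0.33 without 6 h replicate 1. In both genes 6 h replicate 1 stood apart and the other 3 libraries lay closer together. FBN2 exceeded FBN1 by 2.18 and 1.98 times at 6 h and by 1.94 and 2.06 times at 24 h, with overlap.

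Of the other microfibril and elastic fibre genes none was called by either tool. FBLN1, which encodes fibulin-1, a calcium-binding partner of fibronectin and laminin, was at 137 and 121 CPM at 6 h and 108 and 87.9 CPM at 24 h (-0.40 ± 0.13, and -0.25 without 24 h replicate 2). The latent TGF-beta binding proteins, which anchor the latent growth factor in the matrix, differed among themselves in value. LTBP3 was at 262 and 225 CPM at 6 h and 216 and 189 CPM at 24 h (-0.26 ± 0.12), without overlap, and its fold change was -0.15 without 6 h replicate 1 and -0.04 after removal of the length and GC trend. LTBP2, which unlike the others does not bind latent TGF-beta, was at 127 and 131 CPM at 6 h and 120 and 129 CPM at 24 h, with overlap (-0.06 ± 0.10, and 0.22 with the length and GC trend removed). LTBP1 had a fold change of -0.43 ± 0.20, which was -0.17 without 6 h replicate 1. EMILIN2 had 0.19 ± 0.15 and EMILIN1 -0.05 ± 0.39, and the last was below 1 CPM in every library. FBLN2 had 2 counts in each 24 h library and 0 in each 6 h library, and FBLN5 had 1 and 1 against 2 and 4, both under the filter.

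The thrombospondins are calcium-binding matrix proteins that act on adhesion and on vessels, and none of them was called by either tool. THBS1, known as an inhibitor of vessel growth, was at 20.2 and 16.0 CPM at 6 h and 17.2 and 15.7 CPM at 24 h (-0.13 ± 0.15). THBS2 was at 1.39 and 1.48 CPM against 1.27 and 1.29 CPM (-0.17 ± 0.27). THBS3 was at 18.7 and 21.8 CPM at 6 h and 20.7 and 30.6 CPM at 24 h (0.34 ± 0.19), and 24 h replicate 2 alone stood above the rest. It had a fold change of 0.03 without that library, and its span overlaps that of MTX1 by 353 bases. THBS4 had 8 counts in each 24 h library and 13 and 7 at 6 h.

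Of the chondroitin or keratan sulfate proteoglycans, VCAN, which encodes the large hyaluronan-binding versican, was at 176 and 130 CPM at 6 h and 121 and 112 CPM at 24 h (-0.39 ± 0.15, not called, and -0.15 without 6 h replicate 1). SPOCK1, which encodes testican-1, was at 37.9 and 30.5 CPM against 34.8 and 25.6 CPM, with overlap (-0.18 ± 0.17). LUM, the gene of the collagen-binding lumican, was at 1.02 and 0.779 CPM against 1.31 and 1.08 CPM (0.42 ± 0.32) and rested on few counts. DCN, the gene of decorin and a marker of fibroblasts, had no count in any library, and BGN, the gene of the related biglycan, had 0 and 1 at 24 h and 1 and 3 at 6 h.

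The matricellular proteins act on cell behaviour more than on structure. SPARC, a collagen-binding glycoprotein, was at 1307 and 1206 CPM at 6 h and 1235 and 1109 CPM at 24 h, with overlap (-0.10 ± 0.13). SPP1 encodes osteopontin, a secreted ligand of integrins and CD44. It stood at 651 and 683 CPM at 6 h and at 762 and 845 CPM at 24 h, the only member above 100 CPM whose 24 h libraries were both above both 6 h libraries. It was not called (0.27 ± 0.12, edgeR adjusted p = 0.217), and the fold change was -0.03 with the length and GC trend removed. ECM1, which encodes a secreted glycoprotein that binds perlecan and fibulin-1 (ENSG00000143369, hg19 chromosome 1, 150480538 to 150486265), stood at 248 and 216 CPM at 6 h and at 190 and 155 CPM at 24 h. The fold change was -0.43 ± 0.13, with an adjusted p of 0.0392 by DESeq2 (3.55e-07 to 0.849 over all alternative fits), and was -0.42 with the length and GC trend removed. ECM1 was the shortest of the 9 genes that DESeq2 called lower, at 2046 bases. MATN2, which encodes matrilin-2, was at 1.84 and 1.74 CPM against 1.43 and 1.97 CPM (-0.08 ± 0.27), and its span overlaps that of the abundant RPL30. POSTN, the gene of periostin, had no count.

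The spread between replicates ran along the same genes as the difference between times. Levels were lower in replicate 2 than in replicate 1 in 24 of the 31 tested members at 6 h (median log2 ratio -0.27) and in 19 at 24 h (median -0.16), beside 51.7% and 49.9% of all tested genes. Across the 31 members the fold change between times and the mean difference between replicates had a Pearson correlation of 0.75 and a Spearman correlation of 0.83. Across all 12549 tested genes the Pearson correlation of the same differences was 0.67. These points share the same 4 libraries and are given as a description. The library 6 h replicate 1 was the highest of the 4 in 22 members (71.0%), against 37.1% of all tested genes, and 24 h replicate 2 was the lowest in 18 (58.1%), against 39.5%. The order of FN1, namely 6 h replicate 1, 6 h replicate 2, 24 h replicate 1 and 24 h replicate 2 from high to low, was found in 14 members (45.2%) and in 22.2% of all tested genes. The 14 were FN1, TNC, LAMB1, LAMB3, LAMC1, NID1, NID2, AGRN, FBN1, FBN2, FBLN1, LTBP3, VCAN and ECM1. They hold all 9 that DESeq2 called, but the share of this order among all genes that DESeq2 called lower was not counted. Fold changes were also lower in members of higher level (Pearson -0.52 and Spearman -0.47 with log2 mean CPM) and of greater length (-0.41 and -0.36), again as a description over 31 genes.

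**Figure D4:**
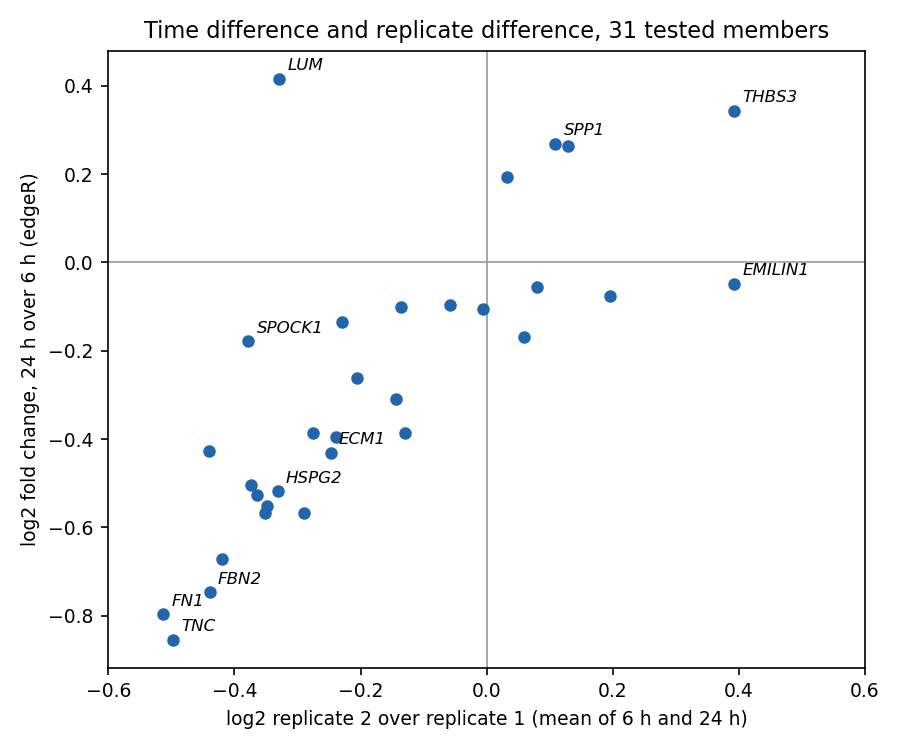
Log2 fold change of 24 h over 6 h plotted against the log2 ratio of replicate 2 over replicate 1, averaged over both times, for the 31 tested members. TNC, FN1 and FBN2 lie at the lower left and THBS3 at the upper right, and LUM lies away from the other points.

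Receptors and partners were read from lists of genes outside the 42. Of 23 receptor entries for matrix glycoproteins, 18 were tested, with a median fold change of -0.24 and 14 below 0. DESeq2 gave 16 of them an adjusted p and called 2 lower and 0 higher, beside 2.65% and 5.59% of all genes. The edgeR test called 0, with 6 lower and 1 higher at an unadjusted p under 0.05, beside 10.5% and 13.9%. Those called by DESeq2 were ITGA5, the alpha subunit of the main fibronectin integrin (-0.45 ± 0.16), and SDC3, a cell-surface heparan sulfate proteoglycan (-0.45 ± 0.12). Of 38 other basement membrane and matrix genes, 22 were tested, with a median of -0.21 and 16 below 0, and DESeq2 called 4 lower and 0 higher of the 11 with an adjusted p, while edgeR called 0 (6 lower and 0 higher unadjusted). In both lists together DESeq2 called 0 without 24 h replicate 2 and 0 without 6 h replicate 1. The 4 were the type IV collagen chains COL4A2 (-0.73 ± 0.20), COL4A1 (-0.71 ± 0.19) and COL4A5 (-0.45 ± 0.13), and PXDN (-0.52 ± 0.16), the enzyme that crosslinks that collagen. COL4A1 and COL4A2 stood at 373 and 573 CPM in 6 h replicate 1 and at 170 and 250 CPM in 24 h replicate 2, again the highest and the lowest of the 4 libraries.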

How the data were processed

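The deposited file holds raw read counts of 20372 genes, which the authors left without normalization, with hg19 coordinates. Per the submitters' processing notes, STAR 2.3 and hg19 were used, with DESeq2 for the study's own tests. Reads are single-end per the labels and paired-end per the study's methods, which also name a later release of STAR. For library preparation those methods point back to a stranded TruSeq kit, where the labels name TruSeq RNA. Not given in the sources used here are the read counter, annotation and whether the counting used strand, so overlapping genes may share reads. The 42 members and the gene lists were chosen with earlier results of these data known.

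All genes were tested together in R 4.3.3 with edgeR 4.0.16 (quasi-likelihood test, filterByExpr, TMM), and Benjamini-Hochberg adjustment over 12549 genes at a threshold of 0.05. DESeq2 1.42.0 was the alternative tool, and its calls were printed after it was seen that edgeR made none. Other alternatives were DESeq2 size factors, no filter, a minimum of 10 CPM, the replicate number as a block, removal of a length and GC trend (spline with 5 degrees of freedom, GENCODE release 44 transcripts, 12392 tested genes) and each library left out. DESeq2 without each library was added after seeing the data, and the ranges of adjusted p over all alternative fits do not include it. All 31 tested members were named. Values in every library were printed for the members called by either tool, the 6 most abundant members and up to 3 more per role. Members under the filter were given as counts. Other genes were named only if called and within 2 lists, at most 4 per list. The values in every library of LAMA2, LAMA3, COL4A1 and COL4A2, and the ratios between genes, were added after seeing the data. Steps were tested on simulated data. A count of 0 was read as allowing up to 3 counts, which covers counting error only. Promoters and their coordinates are from RefSeq on GRCh38.p14 and were not mixed with hg19 coordinates.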

Additional observations from a re-analysis of the deposited data

How the results depend on the processing

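Counts of calls depended on the fit, and the cause was not tested. For the members, edgeR called 0, DESeq2 9, edgeR with the replicate block 19 (17 lower, 2 higher), and edgeR with the replicate block after removal of the length and GC trend 18 (14 lower, 4 higher). Over all genes these were 0, 610 (196 lower, 414 higher), 4565 (2202 lower, 2363 higher) and 3238 (1903 lower, 1335 higher). Over the receptor and other matrix lists they were 0, 6 (6 lower, 0 higher), 19 (17 lower, 2 higher) and 14 (14 lower, 0 higher). These edgeR fits tested 31 members, 12549 genes in all and 40 genes of the lists. Members called higher were SPP1 and THBS3 with the block alone, and LAMA5, LTBP2, EMILIN2 and THBS3 with the block and the removal. The 17 members called lower with the block alone were the 9 that DESeq2 called and FN1, LAMB1, LAMB2, HSPG2, FBLN1, LTBP1, LTBP3 and VCAN. The replicate numbers pair the libraries in name only. Deviations of libraries with the same number correlated at 0.43 across 12549 genes, with only 2 numbers. Size factors, no filter, the stricter filter and the length and GC removal without a block gave 0 calls among members. Leaving out a library with edgeR gave 0 to 17 calls among members (17 without 24 h replicate 1, 9 without 6 h replicate 2), 1 to 3126 over all genes (887 without 6 h replicate 2) and 0 to 16 in the lists (7 without 6 h replicate 2). With DESeq2 the same gave 8, 0, 0 and 8 among members without 24 h replicate 1, 24 h replicate 2, 6 h replicate 1 and 6 h replicate 2. Over all genes it gave 1471, 1, 0 and 133, and in the lists 10, 0, 0 and 4. The members' median of -0.31 was -0.16 with the length and GC trend removed, -0.17 with the replicate block as well, and -0.40 to -0.17 without a library.

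Signs turned for some members that neither edgeR nor DESeq2 called with all 4 libraries and no block. With the length and GC trend removed, alone and with the replicate block, they were 0.11 and 0.10 for LAMA3, 0.22 and 0.21 for LAMA5, 0.13 and 0.14 for EMILIN1, 0.22 and 0.21 for LTBP2, and -0.034 in both for SPP1. In the fit with that trend removed and the replicate block, LAMA5 and LTBP2 were called higher (edgeR adjusted p = 0.0157 and 0.00830), and SPP1 was called higher with the replicate block alone (0.27, edgeR adjusted p = 0.0180). Adjusted p over all fits ran from these values to 0.990, 0.962 and 0.914. Without a library they ranged from -0.21 to 0.017 for LAMA5, -0.26 to 0.22 for EMILIN1, -0.30 to 0.038 for THBS1, -0.42 to 0.026 for SPOCK1 and -0.32 to 0.13 for MATN2. With 2 libraries per time, differences smaller than the spread between replicates could not be resolved, and members of a few counts were not measurable at this depth. Protein features were not run.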
